A study of Octopus bimaculoides with 95 samples.

Results

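IRELamide1 and IRELamide2 are rows named for amidated neuropeptides in RNA-seq tables from Octopus bimaculoides, the California two-spot octopus. They were taken by their names in both deposited tables and make up 2 of 17545 genes. The first table, called the plate table here, holds 85 libraries of 46 tissues. Of these, 21 tissues were counted as neural (51 libraries) and 25 as non-neural (34 libraries). This class was set here from the tissue names, and retina, optic gland, arm tip, hectocotylus and suckers were counted as non-neural. The second table holds 10 libraries, 5 made from single neurons and 5 from whole neural tissue. The labels give no treatment, genotype, strain or age for any group, and a replicate is a further library of the same tissue. Every neural plate library and some others also carry a letter, A, B or C, which the labels do not explain and which may mark animals. The labels do not say which libraries came from the same animal, so the tests between neural tissues measure the spread between libraries, which may be technical. The test of neural against non-neural tissue measures the spread between tissue means, with parts of an organ counted as separate tissues. The vertical lobe was divided into medial, left lateral, right lateral, left mediolateral and right mediolateral parts, with 3 libraries each. The other central lobes with 3 libraries each were the subvertical lobe, the superior and inferior frontal lobes, the dorsal basal lobe, the anterior superior buccal lobe, and the remaining basal and subfrontal lobes as 1 sample. The single neurons were a large efferent and an amacrine neuron of the vertical lobe, a neuron each of the plexiform periphery and the deep medulla of the optic lobe, and a neuron of the stellate ganglion. Each single neuron is 1 library, so no spread between cells is known. The gene IDs carry no product names, so labelled tissues and cell types could not be checked against defining markers.

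Neuropeptides are cut from longer secreted precursors, and many receive an amide at the C-terminal end, which is often needed for them to act. Most act through G protein-coupled receptors and change the excitability of neurons or muscles more slowly than fast transmitters do. The vertical lobe lies at the top of the octopus brain and is known for its part in learning and memory. Its many small amacrine interneurons receive input from the superior frontal lobe and converge on far fewer large efferent neurons, which carry the output towards the subvertical lobe. A bulk library mixes these cells, so fewer cells of a type and less RNA per cell cannot be told apart in it. The sequences of the precursors were not used here.

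Levels are given as TPM, transcript abundance per length scaled to a fixed total, here 1000000 in every library after the spike-in RNAs were dropped. The size of the steps between the TPM values gave back whole reads, so each level can be set beside the reads it rests on. For a value of 0, the level that 3 reads would have had is given as the limit the depth allows. Such limits and all counting intervals cover counting error only. Plate libraries held 57800 to 20055600 recovered reads (median 2294110), and 29 of the 85 held fewer than 1000000. The neural median was 1428250 and the non-neural one 2928665. Spike-in RNA took 1.27% to 94.1% of the deposited TPM in plate libraries. Over all genes, 5 plate libraries stood apart from their tissue or class: chromatophores 1, stellate ganglion 1, right mediolateral vertical lobe 1, the optic gland and retina 3. By median r, each was closer to libraries of the other class, neural or non-neural. Arm tip, buccal muscle and systemic heart output leaned the same way by a smaller margin and were kept. Chromatophores 1 was nearest to left mediolateral vertical lobe 2 (r = 0.939 over genes, against 0.665 with the other chromatophore library), and stellate ganglion 1 was nearest to skin (r = 0.894, against 0.595 for the best of its own tissue). Mean levels that include these libraries, and the neural and vertical lobe comparisons, are given with and without them.

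IRELamide2 was the more abundant transcript of the whole tissues and IRELamide1 was close to the limit of detection. IRELamide2 had 279 reads in 33 of the 85 plate libraries, and IRELamide1 had 42 reads in 15. Among neural libraries, IRELamide2 was above 0 in 28 of 51 with 250 reads, and IRELamide1 in 11 of 51 with 34 reads. Among non-neural libraries, IRELamide2 was above 0 in 5 of 34 and IRELamide1 in 4 of 34. Levels in bulk libraries therefore rest on few reads, and the highest IRELamide2 read count in a plate library was 39.

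IRELamide2 was read in every part of the vertical lobe. In the medial part its 3 libraries gave 10.0, 0 and 9.43 TPM, on 10, 0 and 2 reads. The right lateral part gave 23.5, 8.44 and 0 TPM, on 14, 39 and 0 reads. The left lateral part gave 66.6, 0 and 0 TPM, and the highest of these rests on 2 reads in the shallowest library, where 3 reads would be worth 99.9 TPM. The left mediolateral part was above 0 in all 3 libraries, at 8.66, 15.2 and 6.28 TPM on 5, 23 and 24 reads. The right mediolateral part gave 0, 11.6 and 13.9 TPM, on 0, 15 and 9 reads, and the library at 0 is the one that stood apart. Over the 15 vertical lobe libraries the mean was 11.6 ± 16.7 TPM (SD, n = 15), with 143 reads in 10 of them. Without the library that stood apart the mean was 12.4 ± 17.0 TPM (SD, n = 14), and without left lateral 1, with its 66.6 TPM on 2 reads, it was 7.64 ± 7.16 TPM (SD, n = 14).

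The 5 vertical lobe libraries at 0 were shallow, and 3 reads in any of them would have been worth at least 12.0 TPM. The 8 vertical lobe libraries with at least 1000000 recovered reads were all above 0, from 6.28 to 23.5 TPM with a median of 10.8. Their mean was 12.2 ± 5.42 TPM (SD, n = 8). Within a library this placed IRELamide2 between the top and the middle of the genes above 0: it ranked 5567 of 12227 in right lateral 2, 3996 of 10862 in left mediolateral 2 and 3155 of 9689 in right lateral 1.

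**Figure D1:**
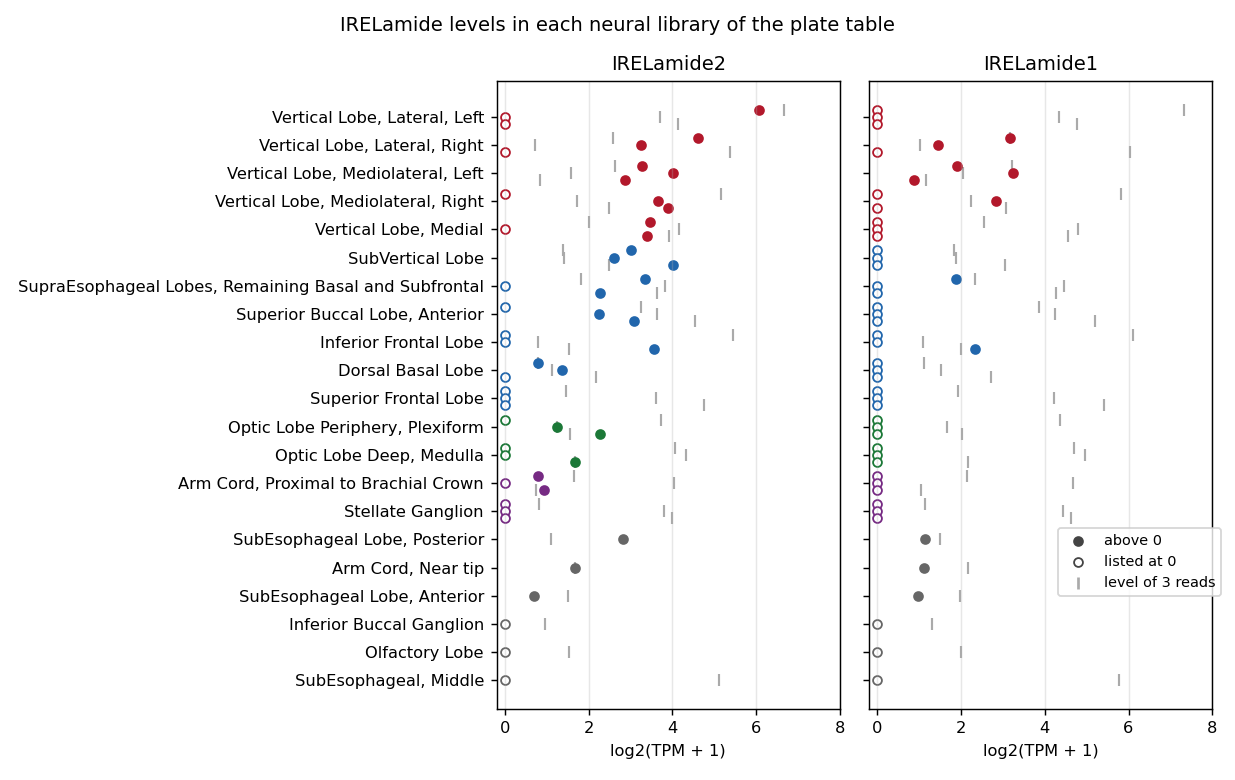
Level of IRELamide2 (left) and IRELamide1 (right) as log2(TPM + 1) in each neural library of the plate table, with 1 row per tissue (red vertical lobe, blue other central lobes, green optic lobe, purple peripheral, grey tissues with 1 library), open circles for libraries listed at 0 and grey ticks for the level that 3 reads would have. The red vertical lobe points of IRELamide2 reach 66.6 TPM on 2 reads, and most open circles stand in rows with a grey tick far to the right, where the library was too shallow to show a low level.

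Among the other central lobes, the subvertical lobe carried IRELamide2 in all 3 libraries. This lobe, which receives vertical lobe output, gave 7.00, 5.04 and 15.2 TPM on 13, 9 and 10 reads. Its mean of 9.09 ± 5.42 TPM (SD, n = 3) lay among the means of the vertical lobe parts other than the left lateral one, which ran from 6.49 to 10.6 TPM. The superior frontal lobe, which sends input to the vertical lobe, was at 0 in all 3 libraries. In the deepest of these libraries 3 reads would be worth 1.76 TPM, and in the other two 11.2 and 26.0 TPM.

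The inferior frontal lobe gave 0, 0 and 10.7 TPM, the last on 17 reads. Its deepest library at 0 allows no more than 0.715 TPM at 3 reads, so the libraries of this lobe disagreed beyond the depth. The dorsal basal lobe was low, at 0.722, 1.56 and 0 TPM on 3, 4 and 0 reads. The anterior superior buccal lobe gave 0, 3.77 and 7.46 TPM, the values above 0 on 1 read each. The remaining basal and subfrontal lobes gave 9.23, 0 and 3.80 TPM on 11, 0 and 1 reads. Over the 18 libraries of these 6 lobes the mean was 3.59 ± 4.62 TPM (SD, n = 18), with 70 reads in 10 libraries. In the 10 with at least 1000000 reads, 7 were above 0 and the mean was 4.95 ± 5.42 TPM (SD, n = 10).

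In the neural tissues outside the lobes grouped here as central, IRELamide2 had few reads except in the posterior subesophageal lobe. The subesophageal lobes had 1 library each and were not part of that group. In the optic lobe, the deep medulla gave 0, 0 and 2.20 TPM and the plexiform periphery 0, 1.37 and 3.84 TPM. All 3 optic lobe libraries with at least 1000000 reads were above 0, and the other 3 allowed 12.4 TPM or more at 3 reads. The stellate ganglion, which serves the mantle muscle, was at 0 in its 3 libraries, of which the deepest is the one resembling skin. The proximal arm nerve cord gave 0.717, 0 and 0.898 TPM on 1, 0 and 4 reads. Among the neural tissues with 1 library, the posterior subesophageal lobe was highest at 6.08 TPM on 16 reads. The arm cord near the tip followed at 2.18 TPM on 3 reads and the anterior subesophageal lobe at 0.608 TPM on 1 read. The middle subesophageal lobe, the inferior buccal ganglion and the olfactory lobe were at 0, with 33.7, 0.935 and 1.88 TPM as the level of 3 reads.

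Ordered by their mean, the tissues ran from the left lateral vertical lobe (22.2 ± 38.5 TPM, a first place that rests on 2 reads in left lateral 1, without which it stands at 0) through the right lateral (10.6 ± 11.9) and left mediolateral parts (10.0 ± 4.61) to the subvertical lobe (9.09 ± 5.42; SD, n = 3 each). The right mediolateral part (8.50 ± 7.45 TPM), the 2 chromatophore libraries (6.62 ± 9.37) and the medial part (6.49 ± 5.63) came next, followed by the posterior subesophageal lobe. Without the libraries set apart, the right mediolateral part stood at 12.7 ± 1.66 TPM (SD, n = 2), ahead of the right lateral part, and chromatophores at 0 in the remaining library. No neighbours with replicates in this stretch differed by more than their spread. The remaining basal and subfrontal lobes (4.34 ± 4.64 TPM), the superior buccal lobe (3.75 ± 3.73) and the inferior frontal lobe (3.57 ± 6.19; SD, n = 3 each) followed. The plexiform optic periphery (1.74 ± 1.95 TPM), the dorsal basal lobe (0.762 ± 0.783), the optic medulla (0.733 ± 1.27) and the proximal arm cord (0.538 ± 0.475; SD, n = 3 each) were lowest among the replicated neural tissues above 0, and these neighbours also lay within their spread.

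The question of whether the peptides mark neural tissue was put to the 46 tissue means. IRELamide2 was higher in neural tissue, by 1.17 ± 0.25 (log2(TPM + 1) difference ± SE, 21 against 25 tissues, adjusted p = 0.000232 in limma). The groups overlapped, since neural tissues such as the superior frontal lobe stood at 0 and the chromatophore mean was among the highest. IRELamide1 did not pass, with a difference of 0.19 ± 0.18 and adjusted p = 0.446, or 0.30 and adjusted p = 0.185 without the libraries set apart. So 1 of the 2 peptides was called higher, where a call needed an adjusted p under 0.05 and a log2 difference of at least 1. Among all 14800 genes tested, 16.6% were called higher in this comparison and 5.07% lower, so a call here is common. The median of all genes was 0.12 higher in neural tissue, and IRELamide2 stood 1.05 above that median. Of the calls, 76.6% were higher, a split that fell to 51.8% under quantile scaling, to 41.5% under median ratio scaling and to 58.2% on the deposited scale. IRELamide2 lay under the threshold of 1 on the deposited scale (0.90, adjusted p = 0.00123) and under quantile scaling (0.98, adjusted p = 0.000644), with its sign kept. With parts of an organ merged it also lay under that threshold.

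The non-neural reads of IRELamide2 came mostly from libraries that stood apart. Chromatophores 1 held 13.2 TPM on 20 reads, close to the 15.2 TPM of left mediolateral vertical lobe 2, the library it most resembled, while chromatophores 2 was at 0 with 3 reads worth 1.41 TPM. The optic gland, an endocrine gland on the optic stalk, held 1.72 TPM on 6 reads, and its nearest library over all genes was subvertical lobe 2. Gill (0.955 TPM), retina 2 (2.34 TPM) and the clear vessel of the systemic heart (0.288 TPM) had 1 read each. The non-neural mean was 0.545 TPM over 34 libraries that ranged from 0 to 13.2 and, without the libraries set apart, 0.116 ± 0.449 TPM (SD, n = 31). The neural difference was 1.35 without them (adjusted p = 2.97e-05 in limma). The libraries set apart were each closer to the other class over all genes. Dropping them favours a larger difference, so this value adds no support. Deep non-neural libraries at 0 included the ova, where 3 reads would be worth 0.337 TPM, the anterior salivary gland at 0.408 TPM and skin at 0.527 TPM.

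**Figure D2:**
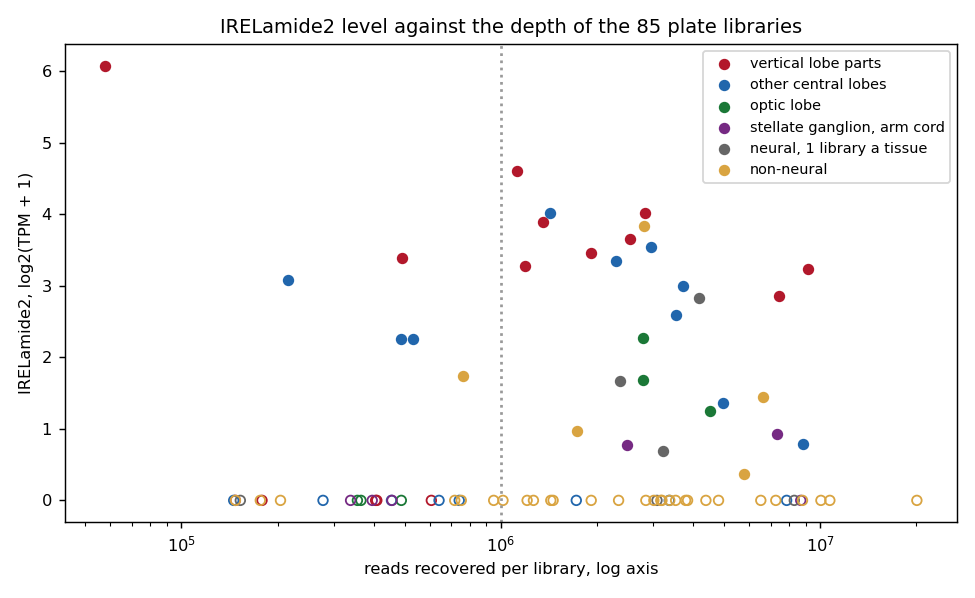
IRELamide2 as log2(TPM + 1) against the reads recovered in each of the 85 plate libraries (log axis), with filled points above 0, open points at 0 and the dotted line at 1000000 reads. To the right of the line all 8 vertical lobe libraries are above 0, and 4 of 27 non-neural libraries are.

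Against the other central lobes the vertical lobe difference did not pass for either peptide. IRELamide2 differed by 1.11 ± 0.55 (log2 difference ± SE, adjusted p = 0.296, 95% interval from -0.01 to 2.22) and IRELamide1 by 0.66 ± 0.27 (adjusted p = 0.171, 0.12 to 1.21), in 1 limma fit of 45 libraries with 3 a tissue. Neither of the 2 peptides was called, against 4.6% of 13346 genes called in either direction, 2.14% higher and 2.46% lower. Without right mediolateral 1 and the other libraries set apart the differences were 1.36 (adjusted p = 0.140) and 0.76 (adjusted p = 0.0913). The libraries overlapped, as values of 0 and values of 15.2 TPM occurred on both sides. With only libraries of at least 1000000 reads, a choice made after seeing the data, the IRELamide2 difference was 1.83 with adjusted p = 0.0566. In that set the vertical lobe libraries lay between 6.28 and 23.5 TPM and the other central ones between 0 and 15.2 TPM.

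Within the vertical lobe no difference between parts passed. The IRELamide2 differences on the log2 scale were -0.04 for medial minus lateral (95% interval -2.29 to 2.21), -0.63 for lateral minus mediolateral (-2.47 to 1.21) and 0.14 for left minus right (-1.70 to 1.98). For IRELamide1 they were -0.77 (-1.87 to 0.33), -0.71 (-1.61 to 0.19) and -0.24 (-1.14 to 0.66). The intervals of IRELamide2 reach beyond 1 log2 unit in each direction, so they do not show that the parts are alike. Of all genes, 0.015% were called between medial and lateral parts and 0% in each of the other comparisons, where limma gave an adjusted p of 0.822 or more for both peptides.

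Neither peptide passed between the optic lobe and the central lobes, or between peripheral and central tissue. IRELamide2 was lower by a log2 difference of -0.75 ± 0.72 in the optic lobe (adjusted p = 0.967) and of -1.33 ± 0.72 in the stellate ganglion and arm cord (adjusted p = 0.386). Of all genes, 1.06% were called higher and 0.142% lower in the optic lobe (1.2% in all), and 2.67% higher and 1.18% lower in peripheral tissue (3.85% in all). For IRELamide1, which had no read in these 12 libraries, the difference was -0.33 ± 0.35 in both comparisons.

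**Figure D3:**
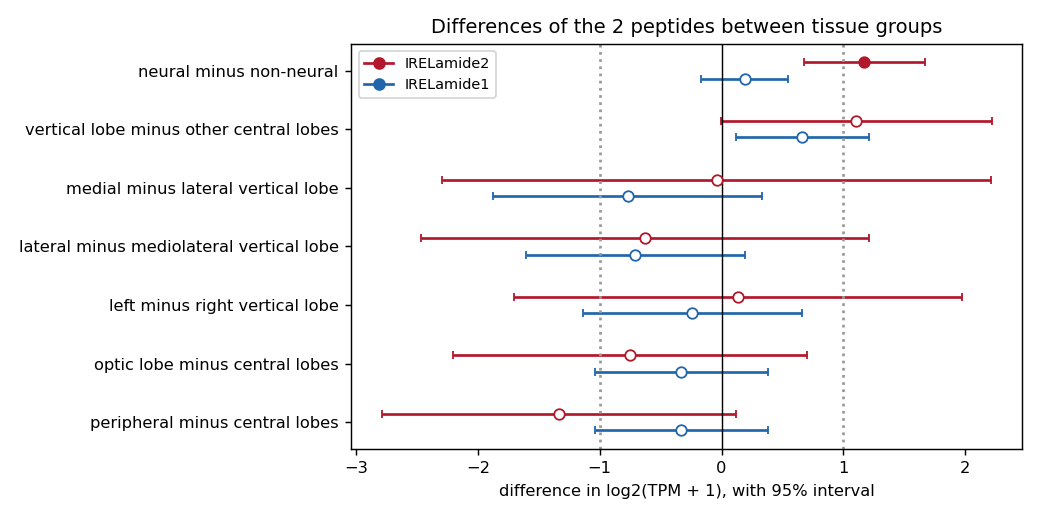
Difference of each peptide in log2(TPM + 1) with its 95% interval for the 7 comparisons, filled where called and open where not, with dotted lines at -1 and 1. Only IRELamide2 between neural and non-neural tissue is filled, at 1.17.

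The single vertical lobe neurons carried far more IRELamide2 than any whole tissue in their table. In the large efferent neuron, an output cell of the lobe, IRELamide2 stood at 1842 TPM on 1461 reads (95% counting interval 1748 to 1938) and ranked 34 of 10186 genes above 0. In the amacrine neuron, an interneuron, it stood at 552 TPM on 229 reads (483 to 629) and ranked 207 of 6861. The 2 cells differed by a ratio of 3.33 (2.90 to 3.85, counting error only). With 1 cell of each kind, this compares these libraries and has no replicate check. The efferent neuron library had 1043420 recovered reads and the amacrine library 551508.

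The 3 single neurons from other places held few reads of it. The plexiform optic neuron had 66.2 TPM on 5 reads (21.5 to 155), the optic medulla neuron 25.9 TPM on 3 reads (5.34 to 75.7) and the stellate ganglion neuron 8.07 TPM on 2 reads (0.977 to 29.2). The upper bounds of all 3 lie under the lower bound of the amacrine neuron. The plexiform optic neuron also stood above every whole tissue of this table, of which the highest was a whole vertical lobe library at 30.1 TPM. Its interval includes that value. Both optic lobe neuron libraries were shallow, with 135240 and 152621 reads, yet listed 13526 and 13051 genes above 0, more than the 10186 and 6861 of the vertical lobe neurons. The part of this in the optic values was not tested.

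In the second table the 2 libraries of whole vertical lobe differed strongly from each other. The first gave 2.37 TPM on 19 reads (1.43 to 3.71), rank 8353 of 14076, and the second 30.1 TPM on 146 reads (25.4 to 35.4), rank 2121 of 13261. Their ratio was 12.7 (7.83 to 21.6), which is beyond counting error between libraries with the same label. The efferent neuron's level was 776 times that of the first and 61.2 times that of the second, and the amacrine neuron's 233 and 18.4 times. The medial superior frontal lobe held 4.64 TPM on 49 reads (3.43 to 6.13), where the plate libraries of the superior frontal lobe had none. The tables were normalized separately, so levels are set across them only side by side. The brachial ganglion, at the base of the arms, held 0.371 TPM on 3 reads, and the whole stellate ganglion was at 0 with 3 reads worth 0.219 TPM.

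**Figure D4:**
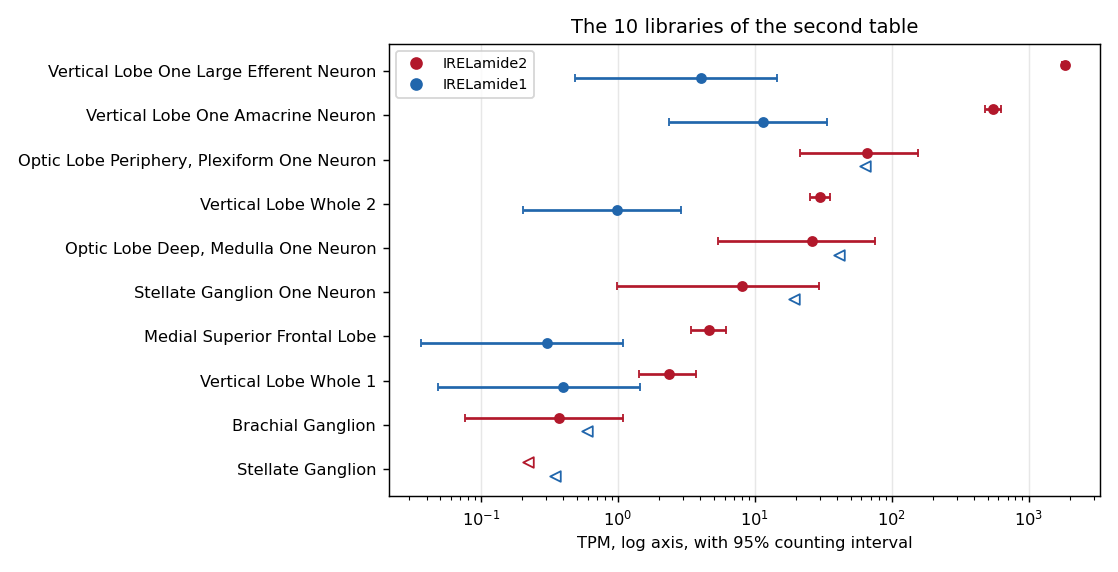
TPM (log axis) of both peptides in the 10 libraries of the second table, points with 95% counting intervals and open triangles at the level of 3 reads where a peptide was listed at 0. IRELamide2 falls from 1842 TPM in the large efferent neuron and 552 TPM in the amacrine neuron to 0 in the stellate ganglion, and IRELamide1 stays at or under 11.5 TPM throughout.

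IRELamide1 was read mainly in the lateral and mediolateral vertical lobe. The left mediolateral part gave 2.76, 8.41 and 0.833 TPM on 1, 8 and 2 reads, and was the only tissue with 3 libraries in which all were above 0. The right lateral part gave 8.01, 1.72 and 0 TPM on 3, 5 and 0 reads, and the right mediolateral part 0, 6.14 and 0 TPM with 5 reads. All 3 medial and all 3 left lateral libraries were at 0, and the deepest of these would give 4.80 TPM for 3 reads in the medial and 19.2 TPM in the left lateral part. Absence from those parts is therefore not shown at this depth. The mean was 1.86 ± 3.07 TPM over the vertical lobe (SD, n = 15; 1.99 TPM without the library set apart) and 0.372 ± 1.11 over the other central lobes (SD, n = 18), where inferior frontal 3 (4.02 TPM, 4 reads) and remaining basal and subfrontal 1 (2.67 TPM, 2 reads) were above 0. The 3 subvertical libraries, all with IRELamide2, had no IRELamide1 read.

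None of the 22 neural libraries under 1000000 reads held IRELamide1, and 11 of the 29 deeper neural libraries did, among them 6 of 8 from the vertical lobe. IRELamide2 was above 0 in 5 of the 22 and in 23 of the 29. Elsewhere IRELamide1 was read in the posterior (1.21 TPM, 2 reads) and anterior subesophageal lobes (0.968 TPM, 1 read) and in the arm cord near the tip (1.16 TPM, 1 read). Outside neural tissue it was read in arm tip (3.83 TPM, 1 read), chromatophores 1 (2.11 TPM, 2 reads), small sucker (1.89 TPM, 1 read) and the optic gland (1.82 TPM, 4 reads). Of these only the optic gland passed 3 reads. The 34 non-neural libraries held 8 reads in all, and 2 reads without the libraries set apart.

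In the 2 vertical lobe neurons IRELamide1 lay far under IRELamide2. The large efferent neuron gave 4.02 TPM on 2 reads (95% counting interval 0.486 to 14.5), rank 7137, and the amacrine neuron 11.5 TPM on 3 reads (2.38 to 33.7), rank 4177. The 3 other neurons were at 0, with 19.3 to 63.3 TPM as the level of 3 reads. The whole vertical lobe libraries held 0.398 and 0.984 TPM on 2 and 3 reads, and the medial superior frontal lobe 0.302 TPM on 2. Both vertical lobe neurons thus stood above the whole tissues of their table, on 2 and 3 reads, and this difference was not tested. The amacrine value was the highest of IRELamide1 in this table, and the highest plate value was 8.41 TPM.

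The peptides were often read in the same libraries. On the plate, 13 libraries held both, 20 held IRELamide2 alone, 2 held IRELamide1 alone and 50 held neither. The 2 with IRELamide1 alone were arm tip and small sucker, at 1 read each. Where both were read, the IRELamide2 TPM was higher in 11 of 13 libraries, with a median ratio of 2.93 and a range from 0.628 to 7.53. The exceptions were the optic gland, at a ratio of 0.942, and the anterior subesophageal lobe, with 1 read of each. In the vertical lobe IRELamide2 was higher in 6 of 6 libraries, by 1.80 to 7.53 times.

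As a share of the reads of the 2 peptides, IRELamide1 made up 14.4% in the plate vertical lobe libraries (24 of 167 reads, exact 95% interval 9.43 to 20.6). That interval pools the reads of 15 libraries and leaves out the spread between them. Single libraries with reads ran from 0% (as in medial 1, with 10 reads of IRELamide2) to 25.8% (left mediolateral 2, 8 of 31 reads). IRELamide1 made up 0.137% in the efferent neuron (0.0166 to 0.493) and 1.29% in the amacrine neuron (0.267 to 3.73). The intervals of the 2 neurons overlap, which does not show that their shares are alike, and the difference was not tested. In the second table the libraries of the whole vertical lobe gave 9.52% (1.17 to 30.4) and 2.01% (0.417 to 5.77), and the medial superior frontal lobe 3.92% (0.478 to 13.5). The intervals of the first whole lobe and of the efferent neuron do not overlap, though the counts of IRELamide1 behind them are 2 each. The interval of the second whole lobe does overlap that of the efferent neuron. A read of IRELamide1 is worth 1.59 times the TPM of a read of IRELamide2 in every library, so read shares understate the transcript share of IRELamide1 by that factor at low shares.

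**Figure D5:**
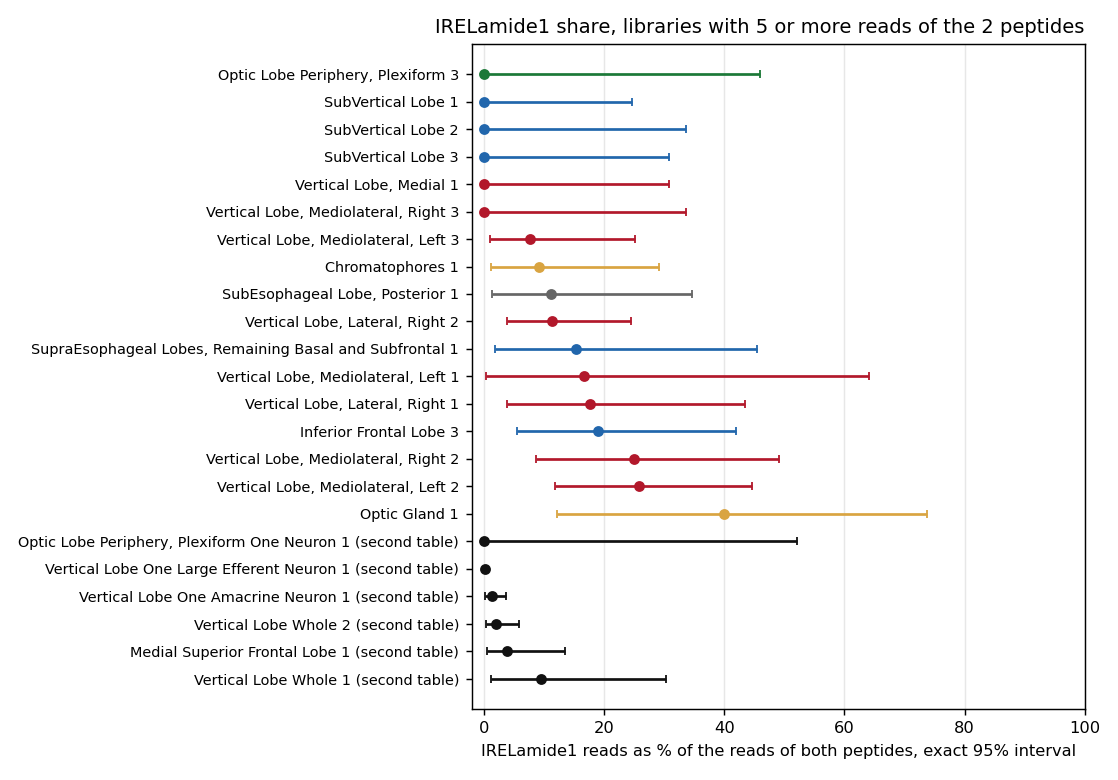
IRELamide1 reads as a percentage of the reads of both peptides, with exact 95% intervals, in the 17 plate and 6 second-table libraries that had at least 5 reads of the peptides together. Blue marks other central lobes, green optic lobe, yellow non-neural tissue and black the second table; plate vertical lobe libraries (red) lie between 0 and 25.8%, and the efferent and amacrine neurons lie at 0.137% and 1.29%.

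The plate table holds 16 other rows with a name in place of a numbered gene ID, and these are set beside the peptides. Among them, NOS is not listed in the second table. Of the 16, 9 were at 0 in all plate libraries and 7 were tested. Between neural and non-neural tissue, 5 of the 7 tested were called higher and 0 lower in limma, where 16.6% of all genes were called higher and 5.07% lower: Betsin (2.36), GNRH (2.02), a gonadotropin-releasing hormone row, Sp12 (3.00), Sp38 (2.58) and VLPep3 (3.34), as log2 differences. APGW, named for a molluscan amidated neuropeptide, and Insulin1 did not pass (0.66 and 1.13). The difference of IRELamide2, 1.17, was smaller than those of the 5. Against the other central lobes 0 of the 7 were called higher in the vertical lobe and 2 lower, where 2.14% of all genes were called higher and 2.46% lower: GNRH by -3.02 ± 0.56 (adjusted p = 0.000401) and VLPep3 by -4.80 ± 1.04 (adjusted p = 0.00274). The values of the 2 IRELamides in that comparison, 1.11 and 0.66, were the only positive ones among the 9 named rows tested. In the second table GNRH and VLPep3 went the other way, with only the medial superior frontal lobe to compare with. Whole vertical lobe 1 held 150 TPM of GNRH and 503 TPM of VLPep3. Whole vertical lobe 2 held 1145 TPM of the former and 1040 TPM of the latter. The medial superior frontal lobe had 0.190 TPM of GNRH (1 read) and 1.51 TPM of VLPep3 (8 reads). This contrast was not tested.

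In the single vertical lobe neurons few other named rows were above 0. The amacrine neuron had reads of the IRELamides and of no other named row listed in its table, which lacks NOS. The large efferent neuron also held Sp38 at 446 TPM (rank 237), Sp12 at 75.4 TPM on 78 reads and Sp31 at 3.03 TPM on 1 read. GNRH, VLPep3, Betsin, APGW and Insulin1 were listed at 0 in both cells. In the stellate ganglion neuron the leading named rows were Betsin at 451 TPM and Sp12 at 285 TPM, against 8.07 TPM of IRELamide2.

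Over the 46 tissue means of log2(TPM + 1), which share library depth and normalization, the 2 peptides had a Pearson r of 0.47 and a Spearman rho of 0.50. The 5 genes most like IRELamide2 among 14799 had a Pearson r from 0.828 to 0.854. They were LOC106867980 (r = 0.854) and LOC106877331 (0.845), both annotated as long non-coding RNAs, and the protein-coding LOC106877995 (0.837), LOC106875237 (0.835) and LOC106871752 (0.828). LOC106867980 averaged 15.5 ± 14.7 TPM in the vertical lobe (SD, n = 15) and 6.15 ± 6.54 in the other central lobes (SD, n = 18), and stood at 117 TPM in the efferent and 56.3 TPM in the amacrine neuron. LOC106877331, at 12.7 ± 20.7 TPM in the vertical lobe (SD, n = 15), was listed at 0 in both neurons. LOC106875237 stood at 32.2 TPM in the efferent and 1.03 TPM in the amacrine neuron, and LOC106871752 the other way, at 3.83 and 78.8 TPM. LOC106877995 was low in both, at 0.736 and 3.29 TPM. LOC106867980 and LOC106875237 were thus higher in the efferent cell, as IRELamide2 was, and LOC106877331, LOC106871752 and LOC106877995 were not. A likeness over tissues therefore did not always go with like levels in the 2 cells. The genes most like IRELamide1 reached lower values, from 0.543 for LOC106883616 to 0.646 for LOC106882511, with LOC106878134, LOC106884168 and LOC106875538 between. Arm tip was the highest tissue of LOC106882511, LOC106878134 and LOC106884168. IRELamide1 had 3.83 TPM there, on 1 read in 1 library. How far these likenesses rest on that read was not tested.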

How the data were processed

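RNA of whole tissues was extracted before conversion to cDNA, and single neurons were converted directly, per the labels' protocols. The submitters' processing notes name Trimmomatic 0.32, STAR 2.3, featureCounts and edgeR 3.14.0. The authors' deposited TPM values sum to 1000000 in each library with the spike-ins included. The genome build is not given in the sources used here.

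From these, 92 spike-in rows were dropped and each library was rescaled to 1000000. For tests across genes, the transcript with the highest mean stood for its gene. Reads were recovered from the steps between TPM values: of values under 100 reads, 99.9992% (plate) and 99.5831% (second table) were within 0.001 of a whole number, which gives reads for 25033 of 25741 plate entries above 0. limma 3.58.1 in R 4.3.3 was run with a trend on log2(TPM + 1), which understates changes of low genes, keeping genes that reached 1 TPM in 3 or more libraries, with Benjamini-Hochberg adjustment over all genes tested. Tissue means were used for neural against non-neural, and 1 fit of 45 libraries (15 neural tissues with 3 libraries) for the rest. The second table entered no test, and its intervals are exact Poisson or binomial ones. The fits and the recovery of reads were tested on simulated data. Alternatives changed the scaling, the pseudocount, the filter, the libraries and the model, and each library was left out in turn.

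The peptides, lists and tests were chosen with earlier results of these data known. Named genes are the 2 peptides, every other row with a name of its own, and the 5 genes with the highest Pearson r with each peptide over tissue means.

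Libraries with the same replicate number did not deviate together (median r = -0.018, over 0.1 in 33.7% of pairs, against a median of 0.0017 in other pairs). Those with the same label letter deviated together little (median r = 0.025, 40% of pairs), against a median of -0.020 for different letters. This small shift was not tested. The labels do not say what the letter marks; it may be the animal. Neither was treated as a pairing, and fits with either as a block were run as alternatives.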

Additional observations from a re-analysis of the deposited data

Results flagged for a closer look

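The second table entered no test, and 6 of its values, all of IRELamide2, stood above the level that a count of 0 allows. They were 1842 TPM in the large efferent neuron, 552 TPM in the amacrine neuron, 66.2 TPM in the plexiform optic neuron, 2.37 and 30.1 TPM in the whole vertical lobe libraries and 4.64 TPM in the medial superior frontal lobe. The reads behind them numbered 1461, 229, 5, 19, 146 and 49. No control library without neural tissue is in this table. The lowest whole-tissue value, 0 in the stellate ganglion, came from its deepest library. No tissue had more than 3 libraries, so the test for a single outlying level within a tissue, which needs at least 4, was not applied.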

How the results depend on the processing

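IRELamide2 stayed higher in neural tissue in all alternatives run, from 0.80 to 1.60 on the log2 scale. It fell under the threshold of 1 with values as deposited (0.90), quantile scaling (0.98), a pseudocount of 2 (0.86), libraries with a 4-digit label (0.80, adjusted p = 0.0431) and parts of an organ merged (0.85, adjusted p = 0.0255), with the adjusted p under 0.05 in each. The labels of plate libraries start with a 4-digit number or with other prefixes, and this style was not spread evenly over tissues. The prefixes ObA and ObRNA occur in neural libraries only, and in the vertical lobe only right mediolateral 1 has a 4-digit label. Label style and tissue are therefore partly confounded in the comparisons. A permutation test of the tissue means (100000 resamples, two-sided) gave p = 5.0e-05. Leaving out each of 85 libraries gave 1.08 to 1.25 and kept the call. No other result was called in any alternative; the nearest were IRELamide1 in the vertical lobe without libraries under 200000 reads (adjusted p = 0.0504) and IRELamide2 there without libraries under 1000000 reads (adjusted p = 0.0566).

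Uncalled values changed sign as follows. IRELamide2, left minus right: -0.063 as deposited, -0.49 without the 5 libraries set apart, -2.16 without libraries under 200000 reads, -0.47 without those under 1000000 and -0.38 with voom on recovered reads. IRELamide2, medial minus lateral: 0.055 with the total over 1 transcript per gene, 0.10 at a pseudocount of 0.5 and 0.32 without libraries under 200000 reads. IRELamide2, lateral minus mediolateral: 0.35 without libraries under 1000000 reads. IRELamide2, vertical lobe minus other central lobes: -1.47 with the 4-digit labels, where the vertical lobe has 1 library, right mediolateral 1. IRELamide1: lateral minus mediolateral 0.60 without libraries under 1000000 reads and 0.58 with voom, left minus right 0.14 without libraries under 1000000 reads, and neural minus non-neural -0.0078 with parts merged. The cause was not tested. Leaving out 1 library gave, for IRELamide2, -0.69 to 1.10 (medial minus lateral), -1.64 to 0.026 (lateral minus mediolateral), -0.88 to 0.64 (left minus right) and 0.70 to 1.37 (vertical minus other central lobes), and for IRELamide1 -0.62 to 0.23 (left minus right).

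Neither the replicate block nor a block of the label letter changed a call. With the replicate block, IRELamide2 in the vertical lobe minus other central lobes was 1.11 (adjusted p = 0.303). Counts of genes called moved by over 1.5 times from 3209 to 2009 (as deposited) and 1543 (4-digit labels) for neural tissue, from 614 to 357 (as deposited) for the vertical lobe, from 160 to 73 (as deposited), 11 (4-digit labels) and 101 (without libraries under 1000000 reads) for the optic lobe, and from 514 to 3 (4-digit labels), 810 and 1399 (without libraries under 200000 and under 1000000 reads) and 1314 (voom) for peripheral tissue. Within the vertical lobe, medial minus lateral moved from 2 to 1 (as deposited, median ratio scaling, pseudocount 0.5) or 0 (filter at 5 TPM, without libraries under 1000000 reads, fit on its own tissues, voom), lateral minus mediolateral from 0 to 3 (without the 5 libraries set apart) and left minus right from 0 to 2 (pseudocount 2). The vertical lobe values rest on few reads: 29 plate libraries held under 1000000.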
